A study of Homo sapiens with 3 samples.

Results

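Genes of ribosome biogenesis and MYC were examined by RNA sequencing in H1975, an established cell line from a human lung adenocarcinoma with mutant EGFR, which the labels also call lung cancer tissue. The cells had received small interfering RNAs (siRNAs). The set was a list of 42 gene symbols, namely MYC and genes of nucleolar proteins, rRNA processing, the box C/D and box H/ACA particles and RNA polymerase I. The table used here has rows for 41 of them, of 16662 genes in all, and NOP2 is not analysed here. One library came from cells given siHHLA3-1, another from cells given siHHLA3-3, which is a differently numbered siRNA against HHLA3, and the last from cells given the control siRNA siNC. All cells were grown in medium with 10% serum, transfected at about 70% confluency, left 6 h without serum and collected 24 h after serum was restored. The siRNA sequences are not given in the sources used here. There were no replicates, and each library has a batch label of its own, so siRNA and batch cannot be told apart. Differences are thus between 3 single libraries, with no p-value, and the intervals given are exact 95% intervals for counting error alone.

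The nucleolus is where RNA polymerase I transcribes the precursor of the large ribosomal RNAs. Box C/D and box H/ACA particles, which are complexes of proteins with small nucleolar RNAs (snoRNAs), guide the chemical modification of that precursor, and large assemblies of helicases and scaffold proteins cut and fold it into the small (40S) and large (60S) ribosomal subunits. MYC is a transcription factor that pairs with MAX, binds the E-box sequence CACGTG and is known to activate many genes of this pathway in growing cells, tumours of the lung included.

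The sequence around the E-box was read in RefSeq promoters (build GRCh38.p14), each a window from 250 bases before to 50 bases after a start site. Windows were found for 33 of the 41 members. The motif CACGTG, which reads the same on both strands, occurred in at least one window of 15 of the 33 members (45.5%). It occurred for 8.77% of the 27305 genes in the promoter table, and for 12.4% of the 9989 of them averaging 1 CPM or more in these libraries. Of 16 motif copies found in the members, 14 lay between 31 bases before and 32 bases after the start. The 10 windows of 30 bases that follow show one or more genes of each role in which a motif was found. They run 5′ to 3′ on the strand of the gene with the E-box in capitals, and a match is a description of the letters, not of binding.
FBL, chr19:39846356-39846385, minus strand: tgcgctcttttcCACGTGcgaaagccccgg
RRP9, chr3:51941892-51941921, minus strand: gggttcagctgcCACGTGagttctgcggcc
GAR1, chr4:109815781-109815810, plus strand: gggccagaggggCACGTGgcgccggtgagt
MYBBP1A, chr17:4555340-4555369, minus strand: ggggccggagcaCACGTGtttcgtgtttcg
UTP20, chr12:101280083-101280112, plus strand: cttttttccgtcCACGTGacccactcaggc
WDR43, chr2:28894658-28894687, plus strand: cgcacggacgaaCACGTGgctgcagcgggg
PNO1, chr2:68157885-68157914, plus strand: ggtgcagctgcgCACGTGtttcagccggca
PES1, chr22:30591880-30591909, minus strand: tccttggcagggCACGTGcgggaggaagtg
GNL3, chr3:52686026-52686055, plus strand: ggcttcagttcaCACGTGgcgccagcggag
DDX21, chr10:68956604-68956633, plus strand: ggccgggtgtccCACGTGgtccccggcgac

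The library totals were 35069930 reads with siHHLA3-1, 26950852 with siHHLA3-3 and 32813003 with siNC. HHLA3, the targeted gene, stood at 1.55 CPM (read counts per library, scaled to one common total) with siHHLA3-1 (55 reads), 0.735 CPM with siHHLA3-3 (20 reads) and 5.99 CPM with siNC (192 reads). It was thus 3.86-fold lower with siHHLA3-1 (2.85 to 5.31) and 8.15-fold lower with siHHLA3-3 (5.13 to 13.6). All 6 epithelial markers checked were measured, with summed levels of 4935, 4129 and 5255 CPM in the siHHLA3-1, siHHLA3-3 and siNC libraries. Of 5 lung lineage markers, NKX2-1 and NAPSA were measured, with sums of 77.3, 38.8 and 70.4 CPM, and the surfactant genes were not analysed here. Of the leukocyte, fibroblast and endothelial markers, CD14 stood at 9.83, 6.50 and 9.76 CPM in the siHHLA3-1, siHHLA3-3 and siNC libraries, COL1A1 at 24.5, 10.9 and 11.3 CPM, and CDH5 at 19.2, 3.01 and 7.95 CPM. The others are not reported here. Their part in the results below was not tested. Levels are relative to each library, so fewer cells of a type and less RNA per cell cannot be told apart.

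The members are abundant genes. Together they took 0.596% of all reads with siHHLA3-1 (0.593% to 0.599%), 0.828% with siHHLA3-3 (0.825% to 0.832%) and 0.753% with siNC (0.750% to 0.756%). Per length, in the authors' TPM, the median member stood at 72.4, 95.8 and 86.9 TPM in the siHHLA3-1, siHHLA3-3 and siNC libraries, against 18.7, 18.7 and 18.3 TPM for the median of all genes above 1 CPM. With siNC, 19 of the 41 lay in the top 10% of all listed genes by TPM. NCL was the highest by TPM in each library, at 438, 638 and 587 TPM, and PPAN the lowest, at 9.73, 10.3 and 9.78 TPM. All 41 passed the filter, an average of 1 CPM or more, with at least 226 reads in every library.

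The first question was whether these genes differed with each siRNA from the control. With siHHLA3-1 they were lower almost throughout: 40 of 41 had a log2 ratio below 0, where 51.8% of all 13879 genes above the filter did. NOLC1 alone was above 0, where 48.2% of all genes were, and WDR75 joined it under DESeq2 size factors, library totals alone, TPM and FPKM. Among the 7935 genes averaging 20 CPM or more, which are closer to the members in abundance, 56.9% were below 0. The median log2 ratio, of (CPM + 1) over (CPM + 1), was -0.36 for the members and -0.01 for all genes, and it was -0.05 for the genes of at least 20 CPM. Most of these differences were modest. At least 1.5-fold lower were 6 members (RRS1, RRP1B, PNO1, NPM1, NOP56 and UTP20), against 3.34% of all genes, and 0 were 1.5-fold higher, against 5.03%. The count was 3 with library totals alone, against 2.47% of all genes, 3 with the deposited TPM, against 2.46%, and 2 with the deposited FPKM, against 1.60%. By the looser measure of at least 20% lower, 21 members were counted, against 13.5% of all genes. The counting interval of the ratio lay below 1 for 36 members, against 32.6% of all genes. Such intervals narrow with more reads, and 40 of 41 members averaged 20 CPM or more, as did 7935 of the 13879 genes. Here and below, counts of intervals are thus not set against genes of like abundance.

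With siHHLA3-3 the members stayed near the control. Their median log2 ratio was 0.06, against -0.01 for all genes, and 30 of 41 were above 0, where 48.5% of all genes and 46.6% of those of at least 20 CPM were. NOLC1 was at least 1.5-fold higher, against 3.65% of all genes, and 0 members were 1.5-fold lower, against 5.57%. With library totals alone, TPM or FPKM, 2 members were 1.5-fold higher, against 4.37%, 4.82% and 2.66% of all genes. At least 25% higher were 2 members (MYC and NOLC1), against 12.7% of all genes, and NPM1 was at least 20% lower, against 15.1%. The counting interval lay above 1 for 21 members, against 27.6% of all genes, and below 1 for 6, against 30.6%.

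Between the siHHLA3 libraries, all 41 members were higher with siHHLA3-3 than with siHHLA3-1, where 50.4% of all genes and 53.6% of those of at least 20 CPM were. The median log2 ratio was 0.43, against 0.00 for all genes. At least 1.5-fold higher were 12 members, against 4.4% of all genes, and 0 were 1.5-fold lower, against 7.82%. Those 12 were RRS1, NOLC1, DKC1, RRP1B, WDR43, DDX10, UTP20, MYC, TSR1, POLR1B, UTP15 and DDX21, with log2 ratios from 0.59 to 0.95. FPKM gave 6, against 2.93% of all genes. At least 25% higher were 27 members, against 14.9%, and 0 were 2-fold higher, against 0.757%. The counting interval lay above 1 for 38 members, against 31.6% of all genes, and held 1 for NHP2, BOP1 and PPAN. These comparisons share libraries, so they are not independent of each other. By level, siHHLA3-1 was the lowest of the 3 libraries for 40 members, against 35.5% of all genes, and siHHLA3-3 was the highest for 30, against 33%.

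**Figure D1:**
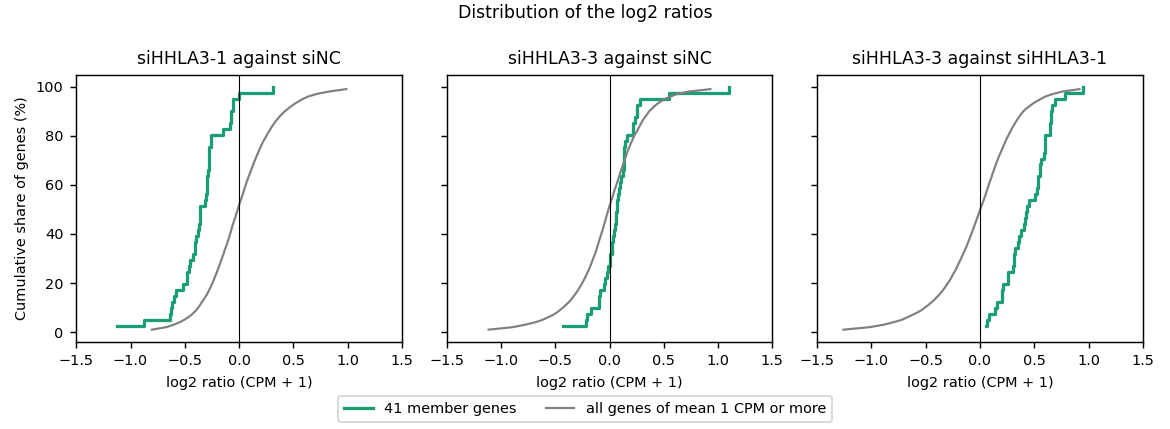
Cumulative share of genes (vertical axis, %) at or below each log2 ratio (horizontal axis), for the 41 members (green steps) and all 13879 genes above the filter (grey, percentiles), in the 3 comparisons. The member curve lies left of all genes with siHHLA3-1 against siNC (medians -0.36 and -0.01), near them with siHHLA3-3 against siNC (0.06 and -0.01), and fully right of 0 between the siHHLA3 libraries.

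MYC itself was near the control with siHHLA3-1 and above it with siHHLA3-3. It stood at 338 CPM with siHHLA3-1, 528 CPM with siHHLA3-3 and 360 CPM with siNC. The siHHLA3-1 and siNC values lay close together and the siHHLA3-3 value was the highest. With siHHLA3-1 it was 1.06-fold lower (1.04 to 1.09). With siHHLA3-3 it was 1.47-fold higher (1.43 to 1.504). Set against siHHLA3-1, the siHHLA3-3 level was 1.56-fold higher (1.52 to 1.60).

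**Figure D2:**
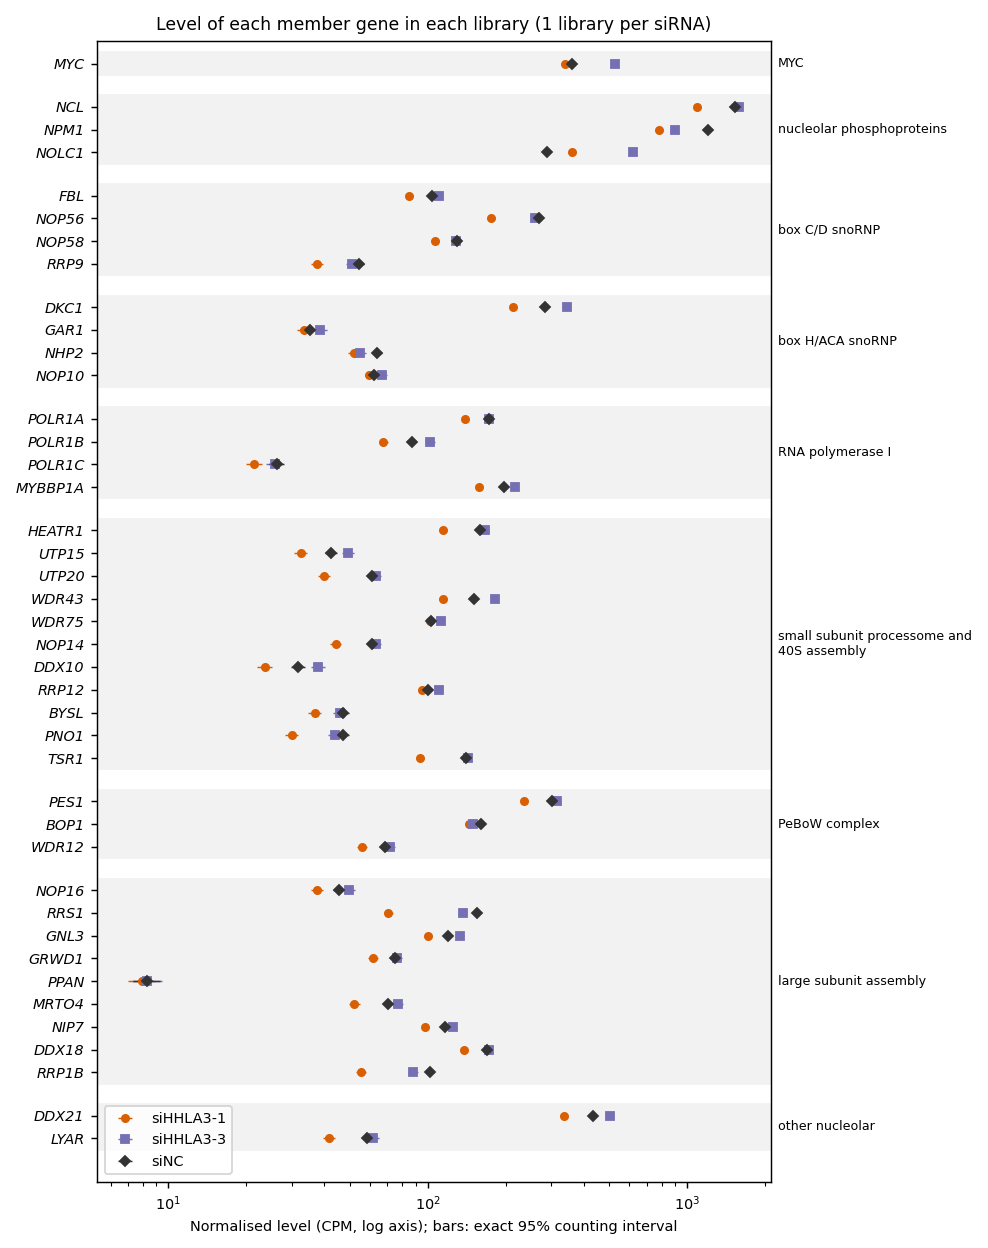
Normalised level of each of the 41 members (horizontal log axis, CPM) in the siHHLA3-1 (circles), siHHLA3-3 (squares) and siNC (diamonds) libraries, ordered by role, with exact 95% counting intervals as bars. The circle is the lowest point for 40 members, and NOLC1 is the exception, with siNC lowest at 288 CPM.

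The nucleolar phosphoproteins NOLC1, NPM1 and NCL differed among themselves. NOLC1, which encodes the snoRNP chaperone Nopp140, stood at 359 CPM with siHHLA3-1, 620 CPM with siHHLA3-3 and 288 CPM with siNC. It was the only member higher than siNC in both siHHLA3 libraries, by a log2 ratio of 0.32 with siHHLA3-1 and 2.15-fold with siHHLA3-3 (2.09 to 2.20). The share of all genes at least 2-fold higher with siHHLA3-3 was 0.807%.
NPM1, nucleophosmin, a histone and ribosome chaperone of the outer nucleolus, stood at 781 CPM with siHHLA3-1, 897 CPM with siHHLA3-3 and 1208 CPM with siNC. It was the lowest member relative to siNC with siHHLA3-3, 1.35-fold lower (1.33 to 1.37), and was 1.55-fold lower with siHHLA3-1 (1.52 to 1.57). GENCODE release 29 names 45 pseudogenes of NPM1, so the division of its reads is uncertain. NCL, nucleolin, an RNA-binding protein of pre-rRNA, stood at 1097 CPM with siHHLA3-1, 1592 CPM with siHHLA3-3 and 1530 CPM with siNC, and so was 1.40-fold lower with siHHLA3-1 (1.38 to 1.41).

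All 4 proteins of box C/D particles, which place 2′-O-methyl groups, were lower with siHHLA3-1, with a median log2 ratio of -0.40, and their ratios with siHHLA3-3 lay between -0.09 and 0.09. NOP56, one of the scaffold pair of the particle, stood at 175 CPM with siHHLA3-1, 259 CPM with siHHLA3-3 and 268 CPM with siNC. RRP9, specific to the U3 particle, stood at 37.5, 50.9 and 54.2 CPM in the siHHLA3-1, siHHLA3-3 and siNC libraries. Both were lowest in the siHHLA3-1 library, and with siHHLA3-3 they lay close to the control. FBL, the methyltransferase fibrillarin, stood at 84.9, 111 and 104 CPM in the same order, and NOP58, the partner of NOP56, at 107, 128 and 130 CPM.

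The box H/ACA proteins, which make pseudouridine and also bind telomerase RNA, were less alike. DKC1, the pseudouridine synthase dyskerin, stood at 214 CPM with siHHLA3-1, 346 CPM with siHHLA3-3 and 284 CPM with siNC. It lay on opposite sides of the control, 1.33-fold lower with siHHLA3-1 (1.29 to 1.37) and above it by a log2 ratio of 0.28 with siHHLA3-3. NHP2 was the one of the group below siNC in both, at 51.8 CPM with siHHLA3-1, 55.1 CPM with siHHLA3-3 and 64.0 CPM with siNC. For GAR1 and NOP10 the counting interval with siHHLA3-1 held 1, at log2 ratios of -0.07 and -0.06, and their ratios with siHHLA3-3 were 0.13 and 0.10.

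The RNA polymerase I genes were lower with siHHLA3-1 by similar amounts, with log2 ratios between -0.36 and -0.28. POLR1B, the second largest subunit, stood at 67.6 CPM with siHHLA3-1, 103 CPM with siHHLA3-3 and 87.1 CPM with siNC. POLR1A, the largest subunit, stood at 140, 173 and 172 CPM in the siHHLA3-1, siHHLA3-3 and siNC libraries. MYBBP1A, a nucleolar protein that binds MYB and represses rRNA gene transcription, stood at 158, 217 and 197 CPM, and POLR1C, shared with RNA polymerase III, at 21.4, 25.7 and 26.2 CPM. POLR1A and POLR1C thus matched siNC within counting error in the siHHLA3-3 library, and POLR1B and MYBBP1A were above it.

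**Figure D3:**
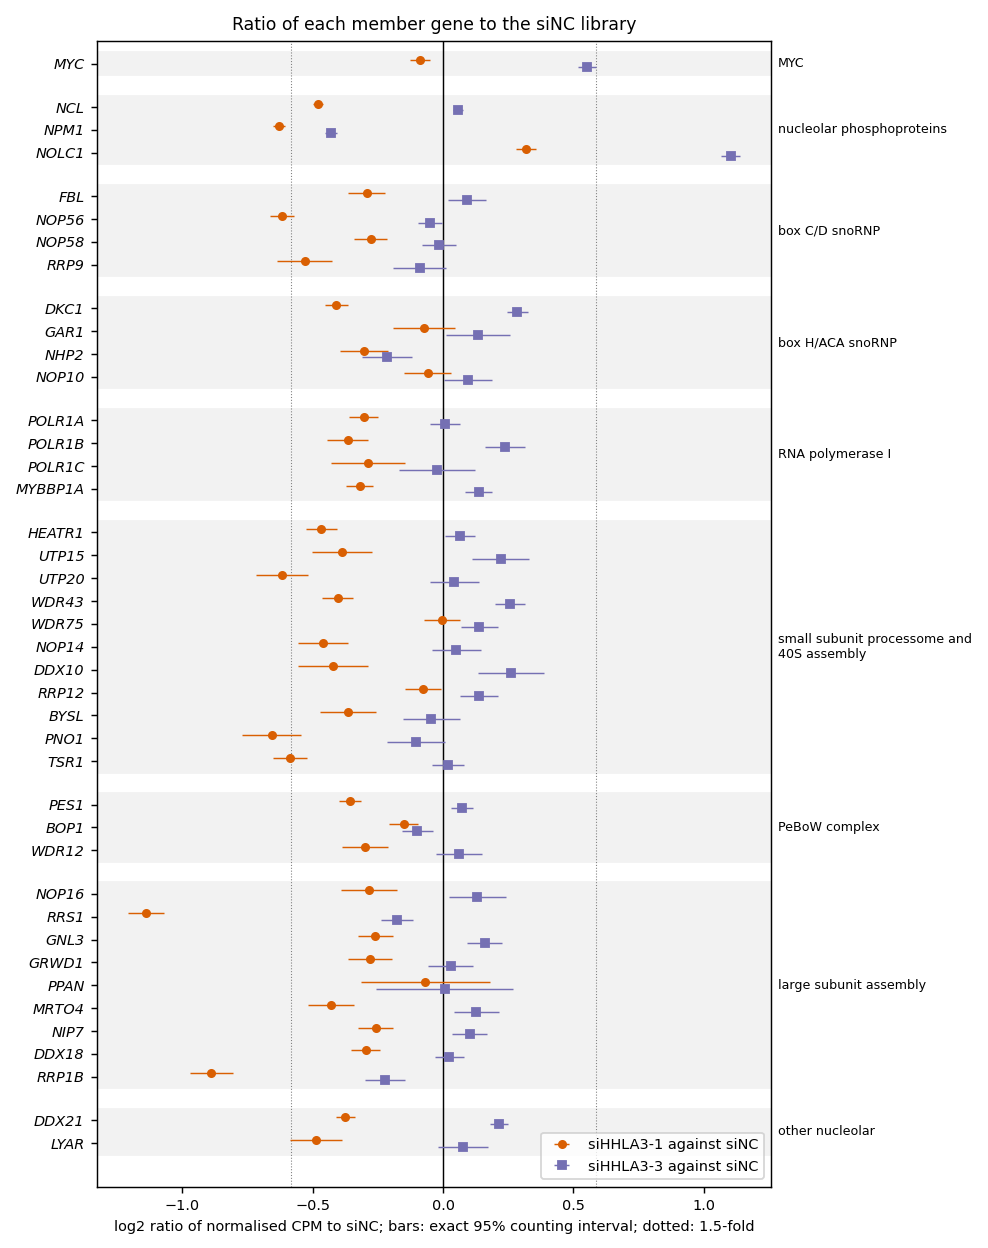
Log2 ratio of normalised CPM to siNC (horizontal axis, no added 1) for each member with siHHLA3-1 (circles) and siHHLA3-3 (squares), ordered by role, with exact 95% counting intervals as bars and dotted lines at 1.5-fold. RRS1 (2.20-fold lower with siHHLA3-1) and NOLC1 (2.15-fold higher with siHHLA3-3) are the outermost points.

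Of the 11 genes of the small subunit processome and 40S assembly, 9 were at least 20% lower with siHHLA3-1, against 13.5% of all genes, and the group's median log2 ratio was -0.41. PNO1, which acts on the 3′ end of the small subunit rRNA with the nuclease NOB1, stood at 29.9 CPM with siHHLA3-1, 43.9 CPM with siHHLA3-3 and 47.1 CPM with siNC. UTP20, a large scaffold protein of the processome, stood at 39.99, 63.1 and 61.3 CPM in the siHHLA3-1, siHHLA3-3 and siNC libraries. TSR1, a GTPase-like factor of late 40S precursors, stood at 93.9, 143 and 141 CPM and, at a log2 ratio of -0.58, lay just short of 1.5-fold on the log2 scale with the added 1. In these 3 genes siHHLA3-1 was the low library and the others lay within counting error of each other.
The processome genes WDR43 and UTP15 were above siNC with siHHLA3-3 instead. WDR43 stood at 115 CPM with siHHLA3-1, 181 CPM with siHHLA3-3 and 152 CPM with siNC, and UTP15 at 32.4, 49.4 and 42.4 CPM. The helicase gene DDX10 had the same order, at 23.5, 37.8 and 31.5 CPM. HEATR1, the human counterpart of yeast Utp10, stood at 115, 166 and 159 CPM, NOP14 at 44.2, 63.0 and 60.8 CPM, and BYSL, bystin, at 36.7, 45.8 and 47.2 CPM. The exceptions were WDR75 and RRP12, a factor of 40S export, with log2 ratios of 0.00 and -0.08 with siHHLA3-1 and 0.14 each with siHHLA3-3.

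PES1, BOP1 and WDR12 form the PeBoW complex, which is needed to process the large subunit rRNA. PES1 stood at 235 CPM with siHHLA3-1, 317 CPM with siHHLA3-3 and 301 CPM with siNC. WDR12 followed it, at 55.7, 71.5 and 68.6 CPM. BOP1 did not, with 144 CPM with siHHLA3-1, 150 CPM with siHHLA3-3 and 160 CPM with siNC, and its siHHLA3 libraries did not differ beyond counting error (1.04-fold, 0.996 to 1.08).

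With siHHLA3-1 the large subunit assembly genes held the extremes among the lower members. RRS1, which in yeast brings the 5S particle into the large subunit precursor, stood at 70.5 CPM with siHHLA3-1, 137 CPM with siHHLA3-3 and 155 CPM with siNC. It was 2.20-fold lower with siHHLA3-1 (2.10 to 2.31), the one member past 2-fold there, against 0.382% of all genes, and 1.13-fold lower with siHHLA3-3 (1.08 to 1.18). RRP1B, a nucleolar partner of protein phosphatase 1, stood at 55.4 CPM with siHHLA3-1, 87.9 CPM with siHHLA3-3 and 103 CPM with siNC, and was 1.85-fold lower with siHHLA3-1 (1.75 to 1.96). Both were below siNC in both siHHLA3 libraries and lowest with siHHLA3-1.
MRTO4, a counterpart of the ribosomal stalk protein that holds its place on the precursor, stood at 52.2 CPM with siHHLA3-1, 76.9 CPM with siHHLA3-3 and 70.4 CPM with siNC. GNL3, nucleostemin, stood at 100, 134 and 120 CPM in the same order. For NOP16, GRWD1, NIP7 and DDX18 the log2 ratios lay between -0.29 and -0.26 with siHHLA3-1 and between 0.02 and 0.13 with siHHLA3-3. PPAN was the least abundant member, at 7.89, 8.30 and 8.26 CPM, and its intervals held 1 in all 3 comparisons. The exons of PPAN overlap those of P2RY11 on the same strand, and the exons of GRWD1 overlap those of KCNJ14 likewise.

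Of the remaining nucleolar genes, DDX21, a helicase that links RNA polymerase I transcription with rRNA processing, stood at 335 CPM with siHHLA3-1, 504 CPM with siHHLA3-3 and 435 CPM with siNC. LYAR, a zinc finger protein of the nucleolus, stood at 41.8, 61.7 and 58.5 CPM. Both were lower with siHHLA3-1, and DDX21 was 1.16-fold higher than siNC with siHHLA3-3 (1.13 to 1.19).

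Members with an E-box in the promoter window and members without one had similar ratios. The 15 with it had medians of -0.37 (log2) with siHHLA3-1 and 0.09 with siHHLA3-3. For the 18 without it the medians were -0.33 and 0.06. Between the siHHLA3 libraries the medians were 0.45 and 0.38. The 8 members with no window in the table used, MYC, NOLC1, NOP58, RRP12, BOP1, RRS1, DDX18 and RRP1B, are not in this comparison.

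A scan of all 7-base sequences in the 3′ untranslated regions (UTRs) of 10495 genes compared mean ratios to siNC of carriers and other genes. The sequence with the most negative difference relative to its standard error was CAGAATG with siHHLA3-1 and GTGAACT with siHHLA3-3. Median log2 ratios of carriers and other genes were -0.09 and -0.02 for CAGAATG, and -0.20 and -0.003 for GTGAACT. These sequences were chosen on the same ratios, so a low median in carriers is partly built in. CAGAATG was carried by 6 of the 41 members (14.6%), against 19.5% of the genes searched, and GTGAACT by 0, against 13.2%. The 6 carriers (NCL, PNO1, HEATR1, WDR12, RRP1B and POLR1C) had a median log2 ratio of -0.47 with siHHLA3-1, and the other 35 members -0.32. Without the carriers, 34 of 35 members were below 0 with siHHLA3-1 and all 35 were higher with siHHLA3-3 than with siHHLA3-1. The sites of the lowest carriers, RRP1B and PNO1, and of the most abundant one, NCL, are shown 5′ to 3′ from GENCODE release 29 transcripts, with CAGAATG in capitals.
RRP1B: tgcttttgtaCAGAATGcgctataaat
PNO1: aagtgaaaaaCAGAATGgttgggtact
NCL: gaaaagaaagCAGAATGttttatcatg

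Other genes of the pathway, which are not in the set, were lower with siHHLA3-1 as well. Of 41 other genes of the small subunit processome, 41 were below 0 with siHHLA3-1 (median -0.27) and 19 with siHHLA3-3 (median 0.02). Of 47 other genes of large subunit assembly, 44 and 18 were below 0, with medians of -0.29 and 0.09. Of all genes above the filter, 51.8% were below 0 with siHHLA3-1 and 51.5% with siHHLA3-3. LAS1L, which is needed to cut the internal spacer of the precursor, stood at 60.9 CPM with siHHLA3-1, 107 CPM with siHHLA3-3 and 116 CPM with siNC. NOL11, an early processome protein, stood at 87.2, 65.4 and 106 CPM, and was thus lower with siHHLA3-3 than with siHHLA3-1. Its 3′ UTR carries GTGAACT, whose part in this was not tested.
The medians with siHHLA3-1 and siHHLA3-3 were -0.17 and 0.00 for 17 other RNA polymerase I genes, -0.18 and 0.01 for 14 genes of the RNA exosome, which trims precursor RNA, and -0.21 and -0.09 for 76 cytosolic ribosomal proteins. POLR1F, a stalk subunit of RNA polymerase I, stood at 35.7, 59.0 and 60.5 CPM in the siHHLA3-1, siHHLA3-3 and siNC libraries. Of the ribosomal proteins, 74 and 65 were below 0, against 51.8% and 51.5% of all genes. At least 20% lower were 6 of the 76 with siHHLA3-1, against 13.5% of all genes, and 0 with siHHLA3-3, against 15.1%.

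Other known MYC targets, which act in metabolism, translation and protein folding, showed median log2 ratios of -0.42 (siHHLA3-1) and -0.08 (siHHLA3-3). Below 0 were 19 of 19 and 12 of 19, against 51.8% and 51.5% of all genes. ODC1, the ornithine decarboxylase of polyamine synthesis, stood at 56.2 CPM with siHHLA3-1, 100 CPM with siHHLA3-3 and 109 CPM with siNC, and its 3′ UTR carries CAGAATG. PPAT, of purine synthesis, stood at 46.5, 32.4 and 62.5 CPM and LDHA, lactate dehydrogenase A, at 1593, 548 and 2196 CPM. Both were lowest with siHHLA3-3, unlike any of the 41 members. Both carry GTGAACT, LDHA together with CAGAATG, and whether carriage plays a part in these values was not tested.
The 13 measured genes of the MYC network had medians of 0.02 and -0.02. Above 0 were 8 with siHHLA3-1, against 48.2% of all genes, and 4 with siHHLA3-3, against 48.5%. MXD4, a repressor that competes with MYC for MAX, stood at 51.5 CPM with siHHLA3-1, 24.1 CPM with siHHLA3-3 and 24.4 CPM with siNC, high in the siHHLA3-1 library alone. MYCBP, which encodes a MYC-binding protein, stood at 14.1, 6.76 and 18.7 CPM, and MLX, a partner of MXD4, at 70.6, 47.2 and 72.8 CPM, both lowest with siHHLA3-3. MYCBP and MXD4 carry GTGAACT and MLX carries neither sequence, and the part of carriage was not tested. Chosen after their values were seen, the related repressors MXI1 and MNT each had a log2 ratio of 0.55 in the siHHLA3-1 library, and -0.02 and 0.00 in the siHHLA3-3 library, and MAX had -0.34 and 0.26. Single values of the other network genes are not reported here. The part of any network gene in the results was not tested.

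Cell cycle genes were also lower with siHHLA3-1 than with siHHLA3-3, and their part in the result was not tested. Of 40 G1/S genes, 39 were below 0 with siHHLA3-1 (median -0.52) and 11 with siHHLA3-3 (median 0.13). Of 38 G2/M genes, 37 and 36 were below 0, with medians of -0.68 and -0.24. Of all genes, 51.8% were below 0 with siHHLA3-1 and 51.5% with siHHLA3-3. Targets of p53, a factor known to be stabilised when ribosome assembly is disturbed, had medians of 0.07 and 0.03. Above 0 were 13 and 12 of 24, against 48.2% and 48.5% of all genes. The log2 ratios of the p53 targets spanned -0.84 to 1.34 with siHHLA3-1 and -0.68 to 1.38 with siHHLA3-3. At least 1.5-fold lower were 2 of the 24 with siHHLA3-1, against 3.34% of all genes, and 1 with siHHLA3-3, against 5.57%. At least 1.5-fold higher were 4 with siHHLA3-1, against 5.03%, and 3 with siHHLA3-3, against 3.65%. The top of the range with siHHLA3-1 was BBC3, a promoter of cell death, which stood at 43.2 CPM with siHHLA3-1, 29.5 CPM with siHHLA3-3 and 16.5 CPM with siNC. With siHHLA3-3 the top was SESN2, at 53.8, 82.9 and 31.2 CPM in the same order.

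**Figure D4:**
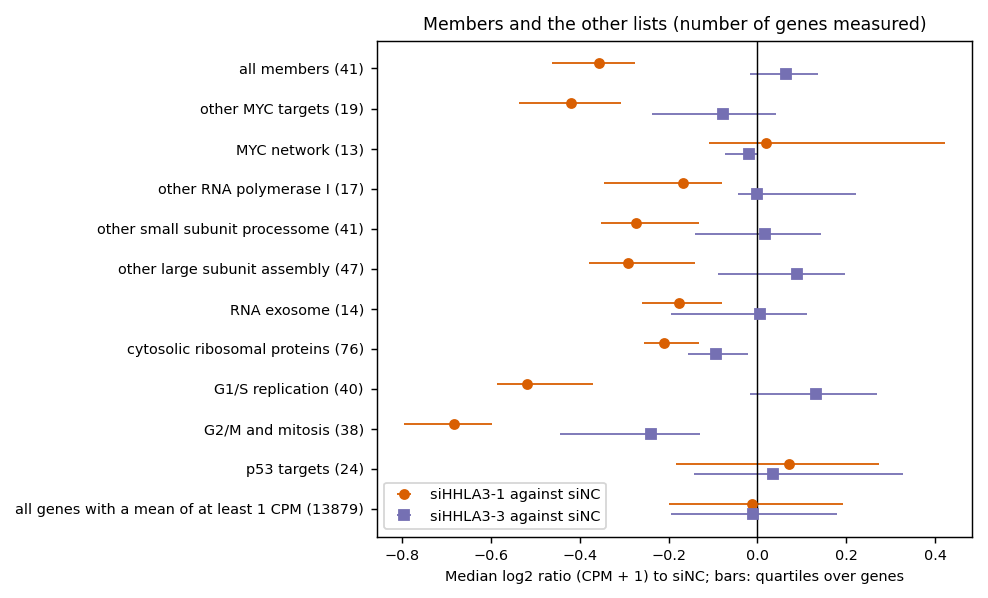
Median log2 ratio to siNC (horizontal axis, CPM + 1) with siHHLA3-1 (circles) and siHHLA3-3 (squares) for the members, the other lists and all genes above the filter, with quartiles over genes as bars and the number of genes in brackets. The members lie at -0.36 and 0.06, and all genes at -0.01 and -0.01.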

How the data were processed

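The authors deposited one table with 4 values per gene and library. Its deposited counts are whole reads per gene. Its deposited CPM are counts scaled to one library total, and the deposited TPM and FPKM are the authors' values per gene length. Per the submitters' processing notes, the build was hg19 and the tools included HISAT2, HISAT, TopHat2 and Bowtie2. The counting program, annotation and use of strand are not given in the sources used here. In GENCODE release 29 the exons of 13 members overlap a listed gene on the opposite strand, whose reads may then not be told apart.

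TMM factors (edgeR 4.0.16, R 4.3.3) scaled the counts (1.01 for siHHLA3-1, 1.01 for siHHLA3-3 and 0.978 for siNC), with Python 3.11.15 for the rest. Ratios are log2 of (CPM + 1) over (CPM + 1), which understates differences of low genes. Folds leave out the added 1. Kept were genes averaging 1 CPM or more, and a gene was counted at 1.5-fold on the log2 scale above. Level intervals are Poisson and ratio intervals binomial (Clopper-Pearson). DESeq2 1.42.0 size factors and other settings were tried as alternatives, and the methods were tested on simulated data. The simulated counts held set fold changes and counting error but no spread between cultures, so they cannot test that spread. MYC and up to 4 members per role with the largest mean ratio were given in full, with others added, and up to 3 genes per other list. The members and lists were chosen with earlier results of these data known.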

Additional observations from a re-analysis of the deposited data

How the results depend on the processing

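The median log2 ratio of the members kept its sign in all 3 comparisons under scaling with DESeq2 size factors or library totals alone, an added 0.1 in place of 1, without a filter, for members averaging 20 CPM or more, from TPM or FPKM, and without the 6 carriers of CAGAATG. It ranged from -0.36 to -0.28 with siHHLA3-1 against siNC, from 0.06 to 0.13 with siHHLA3-3 against siNC, and from 0.42 to 0.44 with siHHLA3-3 against siHHLA3-1. The median of all genes moved as well, from -0.05 to 0.04, from -0.02 to 0.05 and from -0.001 to 0.03 in the same order. The counts moved more. With siHHLA3-1 the 6 members at least 1.5-fold lower became 3 with library totals alone, 3 with TPM, 2 with FPKM, 1 at 2-fold and 21 at 20% lower. The share of all genes 1.5-fold lower went from 3.34% to 2.47% with library totals alone, 2.46% with TPM and 1.60% with FPKM. With siHHLA3-3 the 1 member 1.5-fold higher became 2 with library totals alone, TPM, FPKM or at 25% higher, and the 0 lower became 1 at 20% lower. Between the siHHLA3 libraries the 12 higher became 6 with FPKM, 0 at 2-fold and 27 at 25% higher. Beyond the thresholds themselves, the cause was not tested. Under library totals alone, DESeq2 size factors, TPM or FPKM, 39 members rather than 40 were below 0 with siHHLA3-1. Of 858 values of single members under another setting, 75 left the counting interval of the main value. A change of sign was seen in 14, all with a main log2 ratio of at most 0.051 in size. Members past 1.5-fold lie far from 0, so the 0 of them that changed sign tests little. No paired analysis was possible because each siRNA has 1 library. Leaving out a library removes a group, so no such value exists. The depth left the ratio of PPAN, at 226 to 280 reads, with an interval of 0.880 to 1.26 between the siHHLA3 libraries, and the spread between cultures could not be measured.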

Other observations

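Long non-coding genes whose introns hold snoRNAs, the RNA parts of the box C/D and box H/ACA particles, were looked at after the member values had been seen. Of 15 measured host genes, 14 were above 0 with siHHLA3-3 against siNC, where 48.5% of all genes were, and 4 with siHHLA3-1, where 48.2% were. The median log2 ratios were 0.30 with siHHLA3-3 and -0.04 with siHHLA3-1. All 15 were higher with siHHLA3-3 than with siHHLA3-1, where 50.4% of all genes were. EPB41L4A-AS1 stood at 10.3 CPM with siHHLA3-1, 16.1 CPM with siHHLA3-3 and 8.07 CPM with siNC, SNHG8 at 22.8, 33.3 and 20.9 CPM, and SNHG12 at 18.6, 22.5 and 15.3 CPM. GAS5, the most abundant of them, stood at 157, 212 and 162 CPM. PVT1, the long non-coding gene beside MYC, stood at 416 CPM with siHHLA3-1, 379 CPM with siHHLA3-3 and 347 CPM with siNC, an order that differs from that of MYC.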
